A study of Mus musculus with 12 samples.

Results

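The FGF4-ERK signaling and feedback genes are 10 genes chosen by name, namely the ligand Fgf4, the receptors Fgfr1 and Fgfr2, the feedback inhibitors Spry2, Spry4, Dusp4 and Dusp6, and the transcription factors Etv4, Etv5 and Egr1. All 10 had a probe that could be tested, among 29546 genes tested in all. They were measured in E14 cells, a mouse embryonic stem (ES) cell line grown without feeder cells in serum and LIF, on 12 one-color arrays of total RNA. Every group was transfected once with esiRNAs, pools of short RNAs made by enzymatic digestion that degrade the matching mRNA, and was collected 48 hr later. The groups were EGFP KD, in which the esiRNAs matched a gene that ES cells do not carry and which served as the control, and KDs of Chd4, Mbd3, Mbd2, Tet1 and Dnmt1, with 2 arrays in each of the 6 groups. All groups thus shared the transfection and none was untreated, and a KD lowers an mRNA without removing it. The comparisons asked how far mRNA levels depend on a DNA methyltransferase (Dnmt1), an enzyme that oxidizes 5-methylcytosine (Tet1), 2 related proteins of alternative NuRD complexes (Mbd2 and Mbd3), and the remodeling ATPase of NuRD (Chd4).

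FGF4 is made by ES cells themselves, and its binding to FGF receptors on the same or neighboring cells activates Ras, Raf, MEK and finally the kinase ERK. In ES cells this pathway is best known for moving cells out of naive self-renewal and toward lineage commitment. ERK activity raises the transcription of its own inhibitors, such as the Sprouty and Dusp genes, and of transcription factors of the ETS and EGR families, so mRNA levels of these genes are often read as a measure of pathway output.

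Values are log2 signals, which is to say that a spot's background-corrected intensity was divided by the 75th percentile of its own array before log2 was taken, so 0 is the 75th percentile. A difference between groups of 1 is a doubling, and levels of different probes cannot be set against each other. Over the 12 arrays the 75th percentile of intensity lay between 1784.5 and 2451.6, and between 30321 and 37535 of 39429 probes were well above background. Replicates are described as biological, and the number of arrays limits the precision of every value. A gene was called changed in a comparison where its p from limma, adjusted by Benjamini-Hochberg across every gene tested, was under 0.05. The arrays lay on 3 slides, and control arrays were on only the first and the second of them. Slide 1 carried the first replicates of the control and of the Mbd2, Mbd3 and Dnmt1 KDs. Slide 2 held EGFP KD replicate 2, both Tet1 KD arrays and Chd4 KD replicate 1, and the other arrays were on slide 3.

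The targeted mRNA was lowered on both arrays in Mbd3 KD (log2 fold change -2.96, limma adjusted p = 0.00391), in Dnmt1 KD (-1.99, 0.389, not called) and in Chd4 KD (-1.28, 0.0418). By probe A_55_P2122997, Tet1 differed from the EGFP KD mean by -1.81 on the second array labeled Tet1 KD, against -0.02 on the first. By probe A_66_P133043, Mbd2 differed by -1.77 on the second array labeled Mbd2 KD, against -0.24 on the first, whereas the brighter probe that stood for the gene (A_55_P2036526) gave -0.07 and -0.08. The targeted gene thus went against the label on the first of the Tet1 KD and the first of the Mbd2 KD arrays. On the first array labeled Tet1 KD it was instead Mbd2 that was low by A_66_P133043 (-1.75), and on the first array labeled Mbd2 KD it was Tet1 (-1.79), the pattern that an exchange of these 2 arrays would give. Whether they were exchanged cannot be settled from the labels, so they were kept as labeled, every value printed for Tet1 KD or Mbd2 KD carries this doubt, and results for these groups are given with and without the 2 arrays. The spread was pooled over all 6 groups, so the 2 arrays also enter the standard errors and adjusted p of the other KDs. Of 12 markers of ES cells, all 12 were tested, 11 were well above background on every array and none was called in any KD.

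Across the pathway, 1 of the 10 genes was called in any comparison with EGFP KD, and this was Dusp4, which rose in Chd4 KD. Over all genes, 3.2% were called in Chd4 KD and 1.97% were called higher. No member was called in Mbd3 KD, where 0.762% of all genes were called, or in the KDs of Mbd2, Tet1 and Dnmt1, where limma called 0% of all genes. In those 3 KDs, 610, 841 and 1379 of all genes (2.06%, 2.85% and 4.67%) had an unadjusted p under 0.05, and so did 0 members, 0 members and 1 member (Fgfr2, in Dnmt1 KD). Unadjusted p was under 0.05 for 2 members in Mbd3 KD (Dusp4 and Dusp6), against 2853 or 9.66% of all genes, and for 4 in Chd4 KD (Fgf4, Dusp4, Dusp6 and Egr1), against 3782 or 12.8% of all genes. The comparisons share the same 2 EGFP KD arrays, so values in different KDs are not independent of each other.

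Members whose 2 KD arrays both lay outside the range of the 2 EGFP KD arrays were counted as not overlapping. In Chd4 KD these were 2 members above and 4 below the control (38.1% of all genes did not overlap), in Mbd3 KD 4 above and 1 below (30.1%), in Mbd2 KD 5 above and 0 below (22.9%), in Tet1 KD 0 above and 1 below (35.3%), and in Dnmt1 KD 3 above and 1 below (21.1%). The median log2 fold change over the 10 members was -0.07 in Chd4 KD, 0.04 in Mbd3 KD, 0.25 in Mbd2 KD, 0.05 in Tet1 KD and 0.14 in Dnmt1 KD, where the medians over all genes lay between -0.03 and 0.09. Without Etv5 and Spry4, whose probes gave only limits, the medians over 8 members were -0.28, 0.09, 0.29, 0.05 and 0.10 in the same order.

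**Figure D1:**
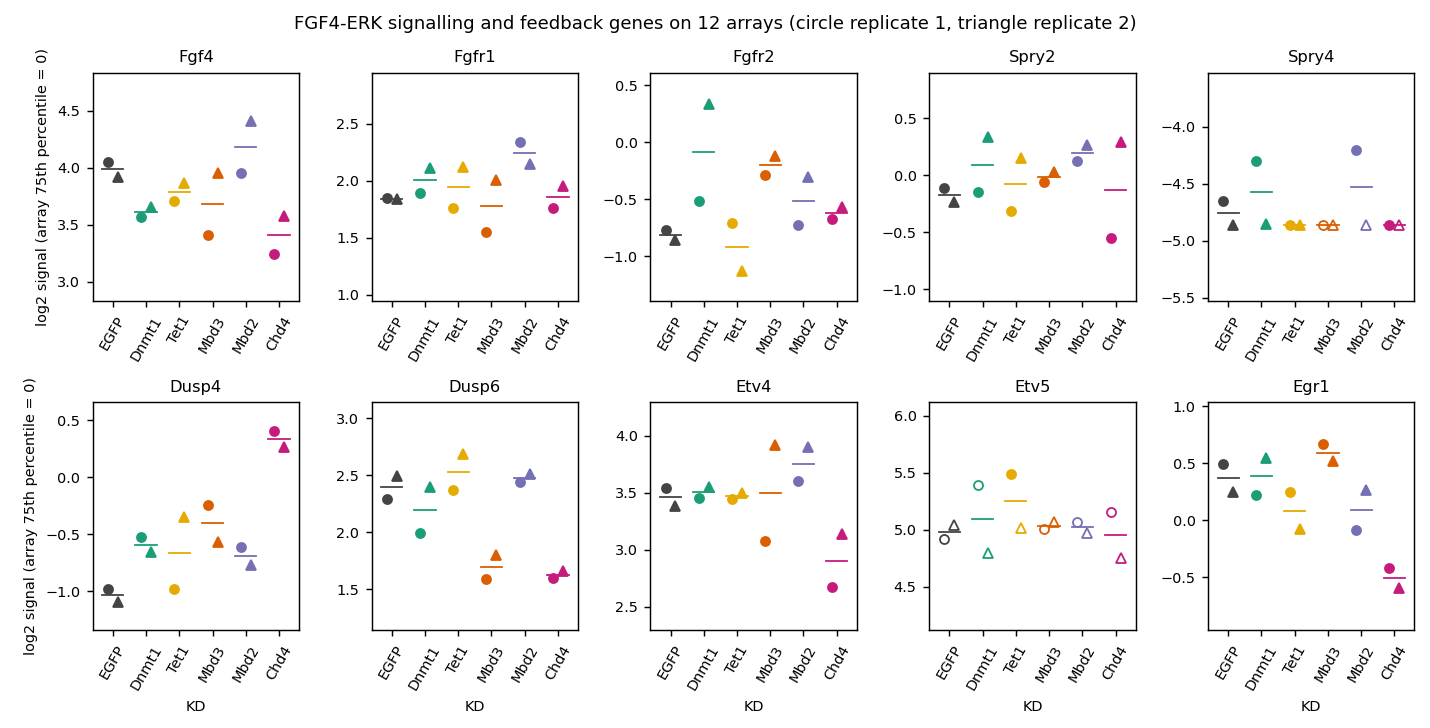
The log2 signal of each of the 10 genes (y axis, 0 is the array's 75th percentile) on the 2 arrays of each group (x axis), with circles for replicate 1, triangles for replicate 2 and a line at the group mean. Open symbols mark a probe not well above background (Spry4) or saturated (Etv5). Dusp4 lies highest and Egr1 lowest on the 2 Chd4 KD arrays, while Dusp6 is low on the 2 Mbd3 KD and the 2 Chd4 KD arrays.

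Fgf4, the ligand that starts the signal, was bright on every array (probe A_66_P117201). Its log2 signal was 4.05 and 3.92 on the EGFP KD arrays, 3.25 and 3.58 on those of Chd4 KD, 3.41 and 3.96 on those of Mbd3 KD, 3.96 and 4.41 on those of Mbd2 KD, 3.71 and 3.87 on those of Tet1 KD, and 3.57 and 3.66 on those of Dnmt1 KD. Both arrays lay below both controls in the KDs of Chd4, Tet1 and Dnmt1, whereas those of Mbd3 KD and Mbd2 KD overlapped them. Relative to EGFP KD the log2 fold change was -0.57 in Chd4 KD (95% interval -1.11 to -0.04, standard error 0.23, limma adjusted p = 0.337) and -0.37 in Dnmt1 KD (limma adjusted p = 0.939), so neither was called.

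The receptor Fgfr1 was measured by 3 probes. By the brightest (A_55_P2057777) its log2 signal was 1.85 and 1.84 on the EGFP KD arrays, 1.76 and 1.95 on those of Chd4 KD, 1.55 and 2.01 on those of Mbd3 KD, 2.34 and 2.15 on those of Mbd2 KD, 1.76 and 2.13 on those of Tet1 KD, and 1.89 and 2.12 on those of Dnmt1 KD. The 2 controls were nearly equal, and both arrays of Mbd2 KD and of Dnmt1 KD lay above them, with log2 fold changes of 0.40 and 0.16 that were not called. In Chd4 KD the log2 fold change was 0.01, with a 95% interval from -0.44 to 0.46. The dimmer probes gave -0.02 (A_55_P1967015) and 0.11 (A_55_P1967022) in Mbd2 KD, so the difference seen there by the brightest probe was not shared by A_55_P1967015. In Chd4 KD, A_55_P1967015 gave -0.30 with both arrays below both controls, and A_55_P1967022 gave -0.05. In Dnmt1 KD these 2 probes gave -0.16 and 0.07, so A_55_P1967015 had the opposite sign to the brightest probe. None of these values was called.

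Fgfr2, a receptor whose expression in the early embryo marks cells bound for primitive endoderm, had 2 probes that disagreed in direction in the KDs of Mbd2, Tet1 and Dnmt1. By the brighter one (A_55_P2094881) the log2 signal was -0.77 and -0.85 on the EGFP KD arrays, -0.68 and -0.57 on those of Chd4 KD, -0.29 and -0.12 on those of Mbd3 KD, -0.72 and -0.31 on those of Mbd2 KD, -0.71 and -1.13 on those of Tet1 KD, and -0.52 and 0.34 on those of Dnmt1 KD. Arrays of 4 KDs, all but Tet1 KD, lay above both controls. This corresponds to log2 fold changes of 0.72 in Dnmt1 KD (adjusted p = 0.939 in limma, standard error 0.29) and 0.61 in Mbd3 KD (adjusted p = 0.604 in limma, standard error 0.29). The dimmer probe (A_51_P432403), the mean of 10 spots printed on the array, gave -0.30 in Dnmt1 KD and 0.08 in Mbd3 KD, and its arrays overlapped the controls in all 5 KDs. On a single array those 10 spots spanned between 0.14 and 1.43 on the log2 scale. This probe was well above background on all 12 arrays but dim, at -4.30 to -3.56. Its lowest spot was at the floor of -4.86, to which dimmer signals were raised, on EGFP KD replicate 1 and Dnmt1 KD replicate 2. Markers of primitive endoderm (6 tested, 4 well above background on every array) had a summed scaled signal of 0.67 to 1.10 in EGFP KD, 1.03 to 1.09 in Mbd3 KD and 0.97 to 1.22 in Dnmt1 KD, with none called.

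**Figure D2:**
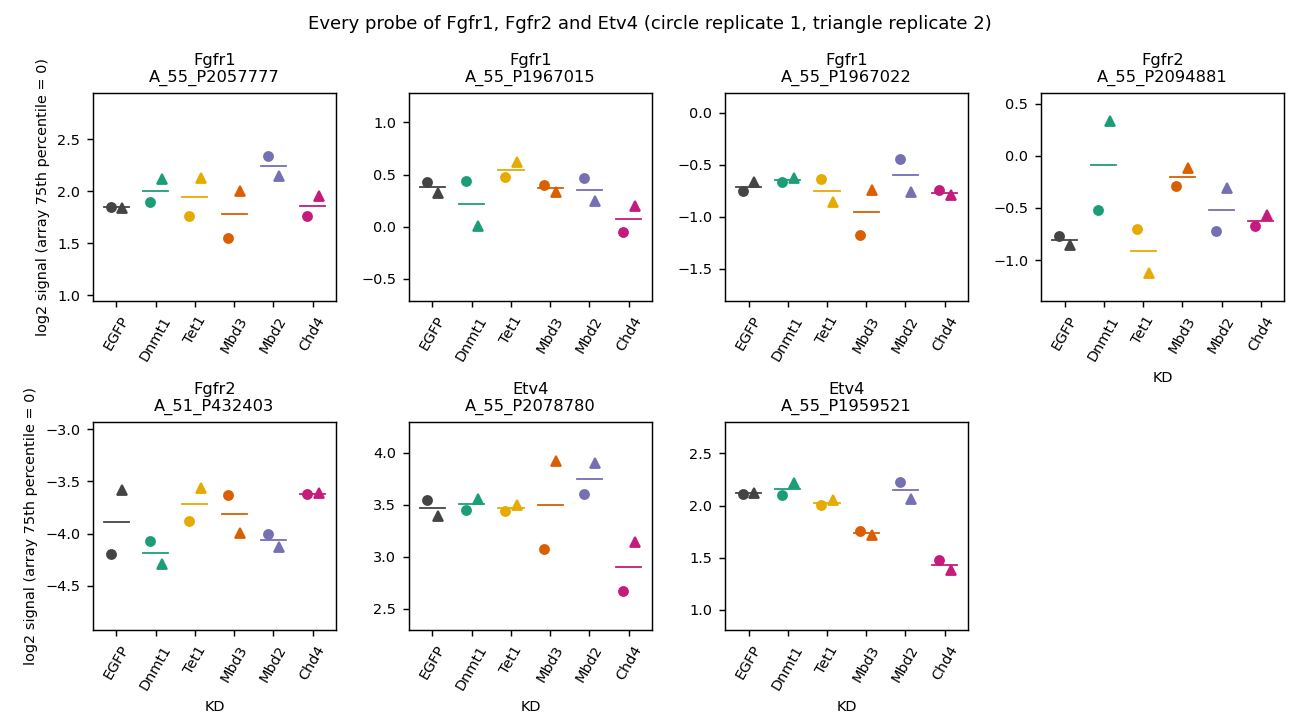
Log2 signal (y axis, 0 is the array's 75th percentile) of every probe of Fgfr1, Fgfr2 and Etv4 in each group (x axis), with circles for replicate 1, triangles for replicate 2 and a line at the group mean. The 2 Fgfr2 probes order the groups differently, and the dimmer Etv4 probe separates Chd4 KD and Mbd3 KD from EGFP KD with little spread.

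The upstream sequences of 4 members are shown because the KDs target proteins that methylate, oxidize or bind CpG, the dinucleotide in which DNA methylation mostly lies. They are the 250 bases before the annotated start, from RefSeq on GRCm38.p6, with each CpG in capitals. Fgf4 (chr7:144861136-144861385, plus strand) and Dusp6 (chr10:99262981-99263230, plus strand) lay below both controls in Chd4 KD, Spry2 (chr14:105896820-105897069, minus strand) had a log2 fold change of 0.04 there, and Fgfr2 (chr7:130266809-130267058, minus strand) is the one with few CpGs.
Fgf4: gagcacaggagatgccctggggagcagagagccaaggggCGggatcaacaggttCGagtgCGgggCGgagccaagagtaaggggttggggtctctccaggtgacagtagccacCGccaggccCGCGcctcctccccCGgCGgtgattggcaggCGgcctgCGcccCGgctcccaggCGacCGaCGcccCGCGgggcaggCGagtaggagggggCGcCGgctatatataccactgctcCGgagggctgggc
Dusp6: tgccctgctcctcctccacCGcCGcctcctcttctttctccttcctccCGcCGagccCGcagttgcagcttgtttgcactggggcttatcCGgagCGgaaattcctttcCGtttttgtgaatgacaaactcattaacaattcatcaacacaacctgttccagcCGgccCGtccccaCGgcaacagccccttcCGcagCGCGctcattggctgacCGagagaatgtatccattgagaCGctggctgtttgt
Spry2: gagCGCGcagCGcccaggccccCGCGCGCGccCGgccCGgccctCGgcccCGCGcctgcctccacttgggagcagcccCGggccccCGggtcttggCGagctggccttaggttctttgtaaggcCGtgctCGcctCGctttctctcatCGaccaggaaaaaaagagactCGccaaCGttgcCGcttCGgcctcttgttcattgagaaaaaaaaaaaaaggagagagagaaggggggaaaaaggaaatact
Fgfr2: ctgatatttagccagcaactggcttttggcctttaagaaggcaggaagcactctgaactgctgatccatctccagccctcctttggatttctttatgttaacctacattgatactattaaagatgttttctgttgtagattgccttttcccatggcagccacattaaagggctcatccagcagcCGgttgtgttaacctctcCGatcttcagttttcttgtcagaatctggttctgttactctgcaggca

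These windows held 21 CpGs in Fgf4, 16 in Dusp6, 23 in Spry2 and 2 in Fgfr2, where the median over 32841 such windows of the table was 6. Fewer CpGs than in Fgf4 were found in 83.6% of all windows, against 74.6% for Dusp6, 86.7% for Spry2 and 18.8% for Fgfr2. The table held 5 of the 10 members, the fifth being Etv5, with 27 CpGs at one start and 18 at the other. ACCGGAAGT and its core CCGGAAG (ETS factors), TGACTCA (AP-1), TGACGTCA (CRE) and the CArG box were searched on both strands. None was found in the windows of these 5 genes, and over all windows they occurred in 0.804%, 6.91%, 4.46%, 1.55% and 1.47%. An absent match says only that those letters are not in this stretch, and methylation was not measured on these arrays.

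Spry2, a Sprouty protein that restrains receptor signaling upstream of ERK, was not called in any KD (probe A_55_P1952251). Its log2 signal was -0.11 and -0.24 on the EGFP KD arrays, -0.55 and 0.29 on those of Chd4 KD, -0.06 and 0.02 on those of Mbd3 KD, 0.12 and 0.26 on those of Mbd2 KD, -0.31 and 0.15 on those of Tet1 KD, and -0.15 and 0.34 on those of Dnmt1 KD. The 2 Chd4 KD arrays were on either side of both controls, and only Mbd3 KD and Mbd2 KD lay above the controls on both arrays. In Chd4 KD the log2 fold change was 0.04 with a 95% interval from -0.66 to 0.75, so a change in either direction within those limits could not be detected.

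Spry4, another Sprouty protein, was near the limit of detection (probe A_52_P204311). Its probe was well above background on 8 of 12 arrays, namely both control arrays, both of Tet1 KD and both of Dnmt1 KD, 1 array of Mbd2 KD, 1 of Chd4 KD and none of Mbd3 KD. The log2 signal was above the floor of -4.86, the level to which dimmer signals were raised, on EGFP KD replicate 1 (-4.65), Dnmt1 KD replicate 1 (-4.30) and the array labeled Mbd2 KD replicate 1 (-4.20), which shared slide 1, and barely so on Dnmt1 KD replicate 2 (-4.86), and it was at the floor on the other 8. Since EGFP KD and Mbd2 KD also had an array at the floor, no fold is given, and the comparisons of Mbd3 KD with them were not called (limma adjusted p = 0.964 and 1).

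Dusp4, a nuclear phosphatase that inactivates ERK, rose in Chd4 KD (probe A_51_P518051). Its log2 signal was -0.98 and -1.09 on the EGFP KD arrays and 0.41 and 0.27 on those of Chd4 KD. On the arrays of the other KDs it was -0.24 and -0.56 on the Mbd3 KD arrays, -0.61 and -0.77 on those of Mbd2 KD, -0.98 and -0.35 on those of Tet1 KD, and -0.52 and -0.66 on those of Dnmt1 KD. Both Chd4 KD arrays were above every other array, and the arrays of the Mbd3, Mbd2 and Dnmt1 KDs lay between them and the controls. Chd4 KD changed it by 1.37 on the log2 scale (standard error 0.21, 95% interval 0.87 to 1.88, limma adjusted p = 0.0193), or 2.59-fold, and on slide 2 Chd4 KD replicate 1 exceeded EGFP KD replicate 2 by 1.50.

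The remaining KDs gave smaller values for Dusp4, of 0.63 in Mbd3 KD (limma adjusted p = 0.360), 0.35 in Mbd2 KD, 0.37 in Tet1 KD and 0.44 in Dnmt1 KD, none of them called. Chd4 KD exceeded Mbd3 KD by 0.74 (adjusted p = 0.221 in limma, standard error 0.21), so the rise could not be called particular to Chd4 KD. The call of Dusp4 in Chd4 KD held in 17 of 23 alternative settings. It was lost with a different background correction (log2 fold change 1.14, limma adjusted p = 0.0503), when only the 4 arrays of the comparison were fitted (adjusted p = 0.161), and without any 1 of these 4 arrays (log2 fold change 1.30 to 1.44, limma adjusted p = 0.0965 to 0.109).

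Over the 12 arrays and 15687 genes with a symbol that were well above background throughout, the log2 signals most correlated with Dusp4 were those of Serinc2 (Pearson r = 0.942), Ubash3b (r = 0.941) and Ptpn18 (r = 0.934). This describes these arrays, which share slides and groups. In Chd4 KD the log2 fold changes of these genes were 1.81, 1.93 and 1.39, with limma adjusted p of 0.0201, 0.00232 and 0.00242.

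Dusp6, the cytoplasmic counterpart that dephosphorylates ERK, was lower on the arrays of Mbd3 KD and Chd4 KD, but short of the threshold (probe A_51_P502614). Its log2 signal was 2.30 and 2.50 on the EGFP KD arrays, 1.60 and 1.66 on those of Chd4 KD, and 1.59 and 1.80 on those of Mbd3 KD. In the other groups it was 2.44 and 2.51 on the Mbd2 KD arrays, 2.37 and 2.69 on those of Tet1 KD, and 2.00 and 2.40 on those of Dnmt1 KD. These 4 arrays of Mbd3 KD and Chd4 KD were the lowest of the 12, and the other 3 KDs overlapped the controls.

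The log2 fold change of Dusp6 was -0.77 in Chd4 KD (standard error 0.17, 95% interval -1.17 to -0.36, limma adjusted p = 0.0699) and -0.70 in Mbd3 KD (standard error 0.17, 95% interval -1.10 to -0.30, limma adjusted p = 0.167). Chd4 KD and Mbd3 KD differed by -0.07 (95% interval -0.47 to 0.34), and Mbd3 KD differed from Mbd2 KD by -0.78 (limma adjusted p = 0.152). Within slides, Mbd3 KD differed from EGFP KD by -0.70 on slide 1 and Chd4 KD differed from it by -0.90 on slide 2. In Chd4 KD the gene was called in 3 of 23 alternatives, which were the replicate number as a block (-0.77, limma adjusted p = 0.0170), the slide as a block (-0.88, limma adjusted p = 0.0409) and the fit without Dnmt1 KD replicate 1 (limma adjusted p = 0.0486). Dusp4 and Dusp6, both inhibitors of ERK, thus had values of opposite sign in these 2 KDs.

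**Figure D3:**
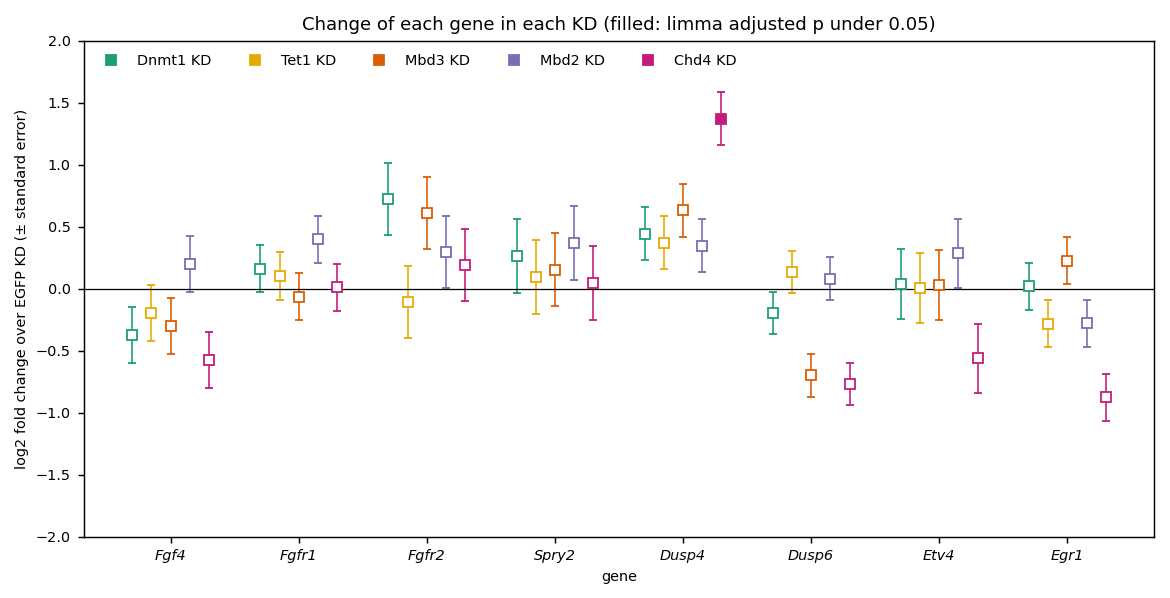
Log2 fold change over EGFP KD (y axis, bars are standard errors from limma) of the 8 members with measured differences (x axis) in each of the 5 KDs. The filled square is Dusp4 in Chd4 KD at 1.37, the one value with an adjusted p under 0.05, and open squares are values that were not called.

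Etv4, an ETS transcription factor induced by FGF signaling, differed between its 2 probes in precision. By the brighter (A_55_P2078780) its log2 signal was 3.55 and 3.39 on the EGFP KD arrays, 2.67 and 3.14 on those of Chd4 KD, and 3.08 and 3.92 on those of Mbd3 KD, with all arrays of the Mbd2, Tet1 and Dnmt1 KDs between 3.44 and 3.90. Both Chd4 KD arrays lay below the controls, with a log2 fold change that came to -0.56 (adjusted p = 0.513 in limma, standard error 0.28). By the dimmer (A_55_P1959521) the log2 signal was 2.11 and 2.12 on the EGFP KD arrays, 1.48 and 1.38 on those of Chd4 KD, and 1.75 and 1.72 on those of Mbd3 KD, against 2.00 to 2.22 in the other 3 KDs.

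With every probe tested on its own, the dimmer Etv4 probe fell in Chd4 KD (log2 fold change -0.69, standard error 0.08, limma adjusted p = 0.00834). In Mbd3 KD its value was -0.38 (adjusted p = 0.134 in limma, standard error 0.08), where the brighter probe gave 0.03. The brighter probe stood for the gene, so Etv4 is not among the members called. Both probes were lower in Chd4 KD.

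Etv5, a close relative of Etv4, was too bright to be measured on nearly all arrays (probe A_55_P2037454). The probe was saturated on 11 of 12 arrays, all but the array labeled Tet1 KD replicate 1, where its log2 signal was 5.48. The signals of 4.75 to 5.39 on the other 11 are lower limits, and no fold change is given.

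Egr1, a zinc finger factor transcribed within minutes of ERK activation, was lowest on the 2 Chd4 KD arrays (probe A_51_P367866). Its log2 signal was 0.49 and 0.24 on the EGFP KD arrays, -0.42 and -0.60 on those of Chd4 KD, and 0.66 and 0.52 on those of Mbd3 KD. It was -0.09 and 0.27 on the Mbd2 KD arrays, 0.24 and -0.08 on those of Tet1 KD, and 0.22 and 0.54 on those of Dnmt1 KD. The arrays of Mbd3 KD were above and those of Chd4 KD below both controls, and the other 3 KDs overlapped them.

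The log2 fold change of Egr1 over EGFP KD was -0.88 in Chd4 KD (standard error 0.19, 95% interval -1.32 to -0.43, limma adjusted p = 0.0639) and 0.22 in Mbd3 KD (adjusted p = 0.822 in limma, standard error 0.19), neither of them called. Compared directly, Egr1 was lower in Chd4 KD than in Mbd3 KD by -1.10 on the log2 scale (adjusted p = 0.0474 in limma, standard error 0.19), and it was the 1 member called in that comparison, where 1.41% of all genes were called. On slide 3, which held replicate 2 of both, the difference was -1.12. That call was kept in 1 of 23 alternatives, with adjusted p between 0.0457 and 0.333 and log2 differences between -1.21 and -1.01. In the comparison of Mbd3 KD with Mbd2 KD, where 0.521% of all genes were called, no member was called and 3 had an unadjusted p under 0.05 (Fgfr1, Dusp6 and Egr1), against 2030 or 6.87% of all genes.

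Without the array labeled Tet1 KD replicate 1, the differences of replicate 2 from the EGFP KD mean were 0.69 for Dusp4, -0.45 for Egr1, 0.32 for Spry2, -0.32 for Fgfr2, 0.29 for Dusp6, 0.28 for Fgfr1, -0.12 for Fgf4 and 0.03 for Etv4. For Dusp4 the array left out had differed by 0.05. Without the array labeled Mbd2 KD replicate 1, those of replicate 2 were 0.50 for Fgfr2, 0.44 for Spry2, 0.43 for Fgf4, 0.43 for Etv4, 0.30 for Fgfr1, 0.27 for Dusp4, 0.12 for Dusp6 and -0.10 for Egr1. No member was called in Tet1 KD or Mbd2 KD with or without these arrays. In the same fit, Dusp4 was still called in Chd4 KD, while the difference of Egr1 between Chd4 KD and Mbd3 KD was not (limma adjusted p = 0.0982).

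The wider pathway was read from 5 lists with 98 genes, of which 93 were tested. None was called in the KDs of Mbd3, Mbd2, Tet1 and Dnmt1. In the same order, 10, 3, 9 and 3 of the 93 had an unadjusted p under 0.05 in limma, beside 9.66%, 2.06%, 2.85% and 4.67% of all genes. The share among the 93 was furthest above that of all genes in Tet1 KD, whose arrays carry the doubt over labels. It was below that of all genes in Dnmt1 KD. In Chd4 KD 12 of the 93 had an unadjusted p under 0.05, beside 12.8% of all genes. There 2 were called, Sdc4 and Spp1, which is 2.15% of the 93 genes where 3.2% of all genes were called. The median log2 fold change over the 93 genes was -0.06 in Mbd3 KD and 0 in Chd4 KD, against -0.03 and 0 over all genes.

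Among 20 further FGF ligands tested, the test passed for none in either Chd4 KD or Mbd3 KD, and their medians were 0.06 and 0.01. Fgf17 had the largest absolute value in Chd4 KD, with log2 signals of -1.60 and -1.43 on the EGFP KD arrays and -2.96 and -2.73 on those of Chd4 KD. Its log2 fold change there was -1.33 (adjusted p = 0.125 in limma, standard error 0.36), and both arrays lay below the controls. Fgf7 was next in Chd4 KD at 1.10. Its slide 1 arrays, none of them Chd4 KD, were at -2.63 to -1.63, against -1.43 to -0.67 on all other arrays. On slide 2 Chd4 KD was at -1.13 and EGFP KD at -1.40. In Mbd3 KD Fgf9 and Fgf21 led at 1.25 and 0.81, from EGFP KD means of -4.72 and -4.35, near the lowest level read. Fgf9 was well above background on 1 of the 2 control arrays. The limma adjusted p of Fgf7, Fgf9 and Fgf21 lay between 0.610 and 0.814.

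In Chd4 KD, where 3.2% of all genes were called, 1 of 14 receptors and co-receptors tested (7.14%) was called higher and none lower. This was Sdc4, a heparan sulfate proteoglycan of the cell surface, with log2 signals of 0.81 and 0.47 on the EGFP KD arrays, 2.10 and 2.09 on those of Chd4 KD, and 1.56 and 1.18 on those of Mbd3 KD. The order of the 3 groups was without overlap. Its log2 fold change was 1.46 in Chd4 KD (adjusted p = 0.0291 in limma, standard error 0.25) and 0.73 in Mbd3 KD (adjusted p = 0.375 in limma, standard error 0.25). Ext1, an enzyme that polymerizes heparan sulfate, had a value of -1.37 in Chd4 KD (limma adjusted p = 0.123). Ndst1, which adds sulfate to heparan sulfate, had -0.68 in Mbd3 KD with a standard error of 0.70. Its Mbd3 KD arrays were at 0.74 and -0.79, against 0.36 and 0.95 in EGFP KD, so the value rested on replicate 2. On slide 3, which held that array, Dnmt1 KD was at -0.82, Mbd2 KD at -0.59 and Chd4 KD at 0.83. The list as a whole had a median of -0.26 in Mbd3 KD, against -0.01 in Chd4 KD.

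None of 21 adaptors and components of the Ras-Raf-MEK-ERK cascade was called. In Chd4 KD their values ranged from -0.54 to 1.04 around a median of -0.03, and in Mbd3 KD from -0.41 to 0.72 around -0.07. The scaffold Ksr1 was highest in Chd4 KD (1.04, standard error 0.77), but its 2 EGFP KD arrays, at -2.36 and -0.71, were themselves further apart than that. Every slide 1 array was low for Ksr1, at -2.36 to -1.64, against -0.71 to -0.35 on all other arrays. Chd4 KD had no array on slide 1, and on slide 2 it was at -0.53 where EGFP KD was at -0.71. Sos2, a Ras activator, was 0.72 in Mbd3 KD and -0.54 in Chd4 KD, and the direct difference of -1.27 was not called (limma adjusted p = 0.114).

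Of 17 other feedback inhibitors and repressors, none was called, and the list had its median at 0.09 in Chd4 KD and at -0.05 in Mbd3 KD. Dusp2, a nuclear phosphatase of the same family as Dusp4, had log2 signals of -1.42 and -0.94 on the EGFP KD arrays, 0.44 and 0.29 on those of Chd4 KD, and -0.95 and -0.54 on those of Mbd3 KD. Both Chd4 KD arrays were again above every other array. The difference of 1.55 on the log2 scale (standard error 0.35) missed the threshold (limma adjusted p = 0.0712). Dusp5 followed at 0.75 (limma adjusted p = 0.207) from controls at or near the floor, while Spry3 had a fitted value of -0.61 in Mbd3 KD (standard error 0.50), where replicate 2 was at the floor and not well above background, so its size is not settled.

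Of 21 other genes that respond to ERK, 1 (4.76%) was called lower in Chd4 KD and none higher, where 3.2% of all genes were called. This was Spp1, which encodes the secreted protein osteopontin, with log2 signals of 1.69 and 1.77 on the EGFP KD arrays, 0.54 and 0.54 on those of Chd4 KD, and 1.33 and 1.00 on those of Mbd3 KD. Compared with EGFP KD it fell by 1.19 on the log2 scale in Chd4 KD (adjusted p = 0.00585 in limma, standard error 0.13), while the value in Mbd3 KD was -0.57 (adjusted p = 0.161 in limma, standard error 0.13). Myc, a growth regulator whose mRNA responds to ERK and other signals, had the largest absolute values of the list, with -2.26 in Mbd3 KD and -1.44 in Chd4 KD (limma adjusted p = 0.0874 for the former and 0.174 for the latter). Its EGFP KD arrays were at 2.09 and 0.88 and differed by more than those of any KD.

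Of the AP-1 genes, Fosb had a value of 1.56 in Mbd3 KD (standard error 0.77) and Fosl1 had 1.19 in Chd4 KD (standard error 0.93), with control arrays over 1 log2 unit apart in both. Fosb was at 0.02 on Mbd3 KD replicate 1 and at -1.36 on replicate 2, against -2.80 and -1.67 in EGFP KD. That replicate 2 value lay within the range of the arrays on slides 2 and 3, -1.72 to -1.07. Fosl1 was at -4.03 to -2.70 on slide 1, which held no Chd4 KD array, and at -2.07 to -1.75 on all other arrays. On slide 2 Chd4 KD was at -1.85 and EGFP KD at -2.05. The list had its median at -0.17 in Mbd3 KD and at -0.01 in Chd4 KD. Directly compared, 1 gene of the lists was called between these KDs, namely Phlda1, named here after its value was seen. The call was just under the threshold (log2 difference 1.09, limma adjusted p = 0.0495). It made 1.08% of the 93 genes, where 1.41% of all genes were called. The mean log2 signal of Phlda1 was -0.54 in Chd4 KD and -1.63 in Mbd3 KD, where EGFP KD had -0.85.

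**Figure D4:**
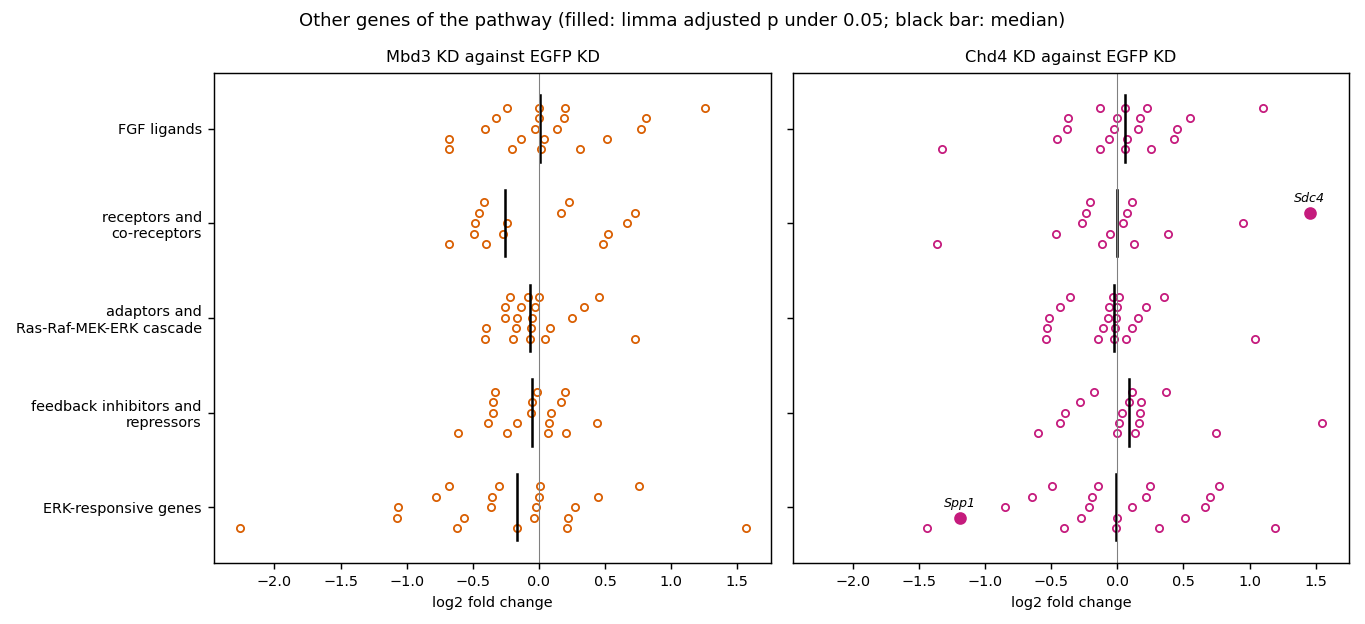
Log2 fold change (x axis) of the 93 other pathway genes tested, in 5 lists (rows), in Mbd3 KD (left) and Chd4 KD (right). Each point is a gene, spread vertically only for legibility, filled points are genes with a limma adjusted p under 0.05 (Sdc4 and Spp1, in Chd4 KD) and black bars are medians, which lie between -0.26 and 0.09.

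Single markers of other cell types were called in the same KDs. The summed scaled signal of 5 fibroblast markers tested was 4.35 to 4.94 in EGFP KD, 9.01 to 9.19 in Mbd3 KD and 8.96 to 11.6 in Chd4 KD, and that of 6 trophectoderm markers was 3.11 to 3.22, 4.53 to 4.84 and 5.97 to 6.56. The median log2 fold change over the fibroblast markers was however -0.23 in Mbd3 KD, against -0.02 in Chd4 KD, so the fibroblast sums did not reflect most of their list. Over the trophectoderm markers the medians were 0.27 and 0.33. Of these 6 only Krt18 was called in Chd4 KD, with mean log2 signals of 1.17 in EGFP KD and 2.35 in Chd4 KD, and none was called in Mbd3 KD. The trophectoderm sums therefore do not by themselves show a rise of that list. Thy1 rose in both KDs (log2 fold change 1.28 and 1.42), and Col1a1 (2.49), Krt18 (1.18) and Otx2 (1.84) rose in Chd4 KD. Otx2 alone was called among 6 primed epiblast markers, whose median log2 fold change there was 0.12. Their summed scaled signal was 31.2 to 34.1 after Chd4 KD, against 30.0 to 30.9 for EGFP KD. Mbd3 KD went the other way, with a sum of 24.2 to 27.5 and a median of -0.20. Otx2 itself was at 0.88 in Mbd3 KD (limma adjusted p = 0.274), so this gene did not stand for its list. The medians over 6 primitive endoderm, 5 mesoderm and 5 neural markers were 0.63, 0.55 and -0.18 in Chd4 KD, with none called. In Mbd3 KD they were 0.16, 0 and -0.39, also with none called. The primitive endoderm sum was 1.06 to 1.15 in Chd4 KD and overlapped that of EGFP KD (0.67 to 1.10). Mesoderm markers summed to 1.07 to 1.08 in Chd4 KD, against 0.48 to 0.96 in EGFP KD. On every array, 4 primitive endoderm and 3 mesoderm markers were well above background. The 12 ES cell markers summed to 188.3 to 209.0 in EGFP KD, 173.3 to 226.4 in Mbd3 KD and 179.3 to 202.4 in Chd4 KD. The part of these markers in the values of Dusp4, Dusp6, Egr1, Sdc4 or Spp1 was not tested, and in bulk RNA a change in the share of cells of one kind and a change of mRNA per cell cannot be told apart.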

How the data were processed

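The authors labeled total RNA with Cy3, hybridized one sample to each Agilent 4 x 44K array and quantified spots with Feature Extraction 10.7.1.1. They deposited the scanner output, and the processed intensity in it had its background subtracted, with no scaling across arrays. A deposited series table of log2 ratios holds the authors' own comparisons with EGFP KD and was not used. Groups and replicates were taken from the sample titles.

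Here each array's intensity was scaled by the 75th percentile, values under a common floor (log2 -4.86, the dimmest signal called well above background, taken from the array where this was highest) were raised to it, and log2 values were formed. Of 43020 spots, 1377 control spots apart, repeated spots of a probe were averaged and flagged outliers left out. A probe was kept if some group had it well above background on its 2 arrays, and each gene was represented by its brightest probe. Accessions were named through RefSeq genes, which matched 71.4% of spots. With 6 groups over 12 arrays, 7 comparisons were fitted with limma 3.58.1 in R 4.3.3, with Benjamini-Hochberg adjustment, and the steps were tested on simulated data.

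The 10 members, the gene lists and the markers were chosen with earlier results of these data known. Named beside the members are the targeted genes, list genes called in a KD, the 2 with the largest absolute log2 fold change per list in Mbd3 KD and in Chd4 KD, and the 3 genes most correlated with each called member. Alternatives were quantile normalization, normexp (offset 50) on median signals, no floor, other filters on dim probes, the mean of a gene's probes or every probe, a block for replicate number, a block for slide, a fit of the 4 arrays compared, a trended and robust variance prior, and each array left out. A fit without the 2 arrays that went against their labels was added after seeing the data.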

Additional observations from a re-analysis of the deposited data

Results flagged for a closer look

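The difference of Egr1 between Chd4 KD and Mbd3 KD was -1.10 on the log2 scale, because the 2 KDs departed from EGFP KD in opposite directions on all 4 arrays and the direct comparison of the groups passed the threshold in limma (adjusted p = 0.0474). It passed in 1 of 23 alternatives. Groups of 2 arrays are too small to look for single arrays that stand apart.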

How the results depend on the processing

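No member called in any setting changed sign, and of the values of single members under single alternatives 1488 kept their side of the threshold or their size, 84 moved by more than the spread between replicates, 28 lost a call and 3 gained one. In Chd4 KD against EGFP KD (1 member, 946 genes and 2 list genes called), members called numbered 0 with normexp or only the 4 arrays compared and 2 with every probe on its own, the replicate block or the slide as a block. Genes called were 497 with no floor, 0 with 4 arrays and 568 without the 2 arrays against their labels, and list genes 6 with normexp, 4 with the replicate block, 7 with slide, 0 with 4 arrays and 1 without the 2 arrays. In Chd4 KD against Mbd3 KD (1 member and 416 genes), the member was lost (0) with quantile normalization, normexp, no floor, either other filter, the replicate block, slide, 4 arrays, the trended prior or without the 2 arrays, and genes called were 158 with no floor, 227 with probes above background on all 12 arrays, 0 with 4 arrays, 260 with the trended prior and 146 without the 2 arrays. In Mbd3 KD (225 genes, 0 list genes), the counts of genes were 126 with quantile normalization, 62 with no floor, 93 with the stricter filter, 57 with slide, 0 with 4 arrays, 64 with the trended prior and 0 without the 2 arrays, and 1 list gene was called with normexp, the mean of probes or every probe. In Mbd3 KD against Mbd2 KD (154 genes) they were 87, 52, 72, 0 (4 arrays), 62 and 25 under quantile normalization, no floor, the stricter filter, 4 arrays, the trended prior and without the 2 arrays. Where 0 genes had been called, Dnmt1 KD gave 6 with normexp, 1 with no floor and 3 with no filter, Tet1 KD gave 3 with normexp and 1 with no filter or the mean of probes, and Mbd2 KD gave 3 with normexp or no floor and 10 without the 2 arrays. Leaving out 1 array at a time gave 0 to 41 genes in Dnmt1 KD, 0 to 34 in Tet1 KD, 30 to 163 in Mbd3 KD, 0 to 90 in Mbd2 KD (with 0 to 1 list genes), 378 to 887 in Chd4 KD (with 0 to 2 members and 1 to 2 list genes), 148 to 360 in Chd4 KD against Mbd3 KD (with 0 members) and 25 to 161 in Mbd3 KD against Mbd2 KD. A group left with 1 array was assumed to vary like the others. The causes of these changes were not tested, except that fewer arrays leave fewer degrees of freedom.

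Same-numbered arrays of different groups deviated together in 10 of 15 pairs of groups (correlation over 0.1, median 0.38) but not in the other 5 (lowest -0.04). The labels give the numbers no shared origin and pairing was accepted only with all 15 pairs over 0.1, so shared deviation was present in part and the block stayed an alternative. The groups with replicate 1 on slide 1 correlated with each other at 0.29 to 0.77. Tet1 KD, with both arrays on slide 2, correlated with the other groups at -0.04 to 0.14. Chd4 KD and EGFP KD, which shared slide 2 under different replicate numbers, gave -0.03. The part of the slides in these correlations was not tested. The replicate block gave 246 genes in Mbd3 KD, 1277 in Chd4 KD, 432 in Chd4 KD against Mbd3 KD and 139 in Mbd3 KD against Mbd2 KD. Signal over background limited Spry4, saturation limited Etv5, and slide 3 held no control.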
